A study of Drosophila melanogaster with 6 samples.

Results

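Cytosolic ribosomal protein genes were examined in whole Drosophila melanogaster larvae raised with or without palm fruit juice. A gene was taken as a member where the array's annotation gave a row exactly 1 gene symbol and that symbol began with RpL or RpS followed by a digit or A, or with RpLP followed by a digit. The rule found 42 genes, each with 1 row, among the 13401 genes that had a row of their own. A gene table of the fly genome held 92 genes with such names, and those without a row of their own were not analysed here. Of the 42, 29 were main genes (15 of the large subunit, 11 of the small subunit and 3 of the stalk). The other 13 were the duplicates in a list of gene pairs, here called b-type or like paralogs. In some pairs, such as RpL10Ab with RpL10Aa, the paralog is the a copy and the main gene the b copy.

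The cytosolic ribosome joins a small subunit, which reads the messenger RNA, to a large subunit, which links amino acids, and a flexible stalk of acidic proteins on the large subunit recruits the elongation factors. Its protein genes are among the most strongly expressed in growing cells, and in flies the loss of 1 copy of many of them slows development and shortens bristles, the Minute phenotype. Several fly ribosomal protein genes have a duplicate that is used mainly in the testis or the germ line. Growth of a larva depends on ribosome production, which nutrients control through the TOR kinase and insulin signalling.

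All larvae were of strain w1118, were 5 days old counted from the egg stage, and ate a semi-purified diet. Control larvae (3 arrays) had that diet alone, and treated larvae (3 arrays) had it with 4 ml of the juice, which is made with water from the fruit of the oil palm. The labels give the final dose as 19000 mg of gallic acid equivalents per kg of diet and also as 0.86 mg per kcal. Since the pair would need 22093 kcal in a kg of diet, no use was made of the dose. Each array held whole-body RNA pooled from 3 to 4 larvae, so a lower value can mean fewer cells of a type or less RNA in each cell, and these cannot be told apart. Values are log2 expression, and a difference is the mean of the juice arrays minus the mean of the control arrays. The fat body genes Lsp2 and Fbp2, which mark the late larva, measured 11.90 or more on every array. Control replicate 1 and juice replicate 2 stood apart, with 536 and 440 genes 2-fold or more away from the average of the remaining arrays, where each of the others had 54 to 178.

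The question was whether larvae fed palm fruit juice held different levels of these transcripts. They did not differ detectably: of the 39 members that passed the filter on dim genes, 0 had an adjusted p under 0.05 in limma (smallest adjusted p = 0.931), where the share of all 10051 tested genes called was 0%. At an unadjusted p under 0.05 the count was also 0 of 39, against 4.68% of all tested genes. The differences ran from -0.34 to 0.38, with 23 members higher and 16 lower in juice, and their median was 0.045, against -0.025 over all tested genes. A higher mean in juice was seen in 59.0% of tested members and in 44.9% of all tested genes. The groups did not overlap in 3 members, all higher in juice, where 10.0% of all tested genes had no overlap, 4.96% with juice higher and 5.08% with juice lower. No member reached a 2-fold difference between the means, as 1.14% of all tested genes did. The direction of the median rested on juice replicate 2, without which it was -0.079. The split of directions moved with the scaling of the arrays, to 27 higher and 12 lower after quantile normalization and to 30 higher and 9 lower with equal array medians. The median over all tested genes moved up under these scalings as well, to 0.004 and 0.02, beside 0.058 and 0.09 over the members. With array weights, which count arrays that fit less well for less, the split was 14 higher and 25 lower. The members' median was then -0.031, against -0.014 over all tested genes.

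The data bounded the size of a change in most members. For the 29 main genes the 95% confidence intervals of the difference lay between -0.54 and 0.79, so all 29 intervals lay within 2-fold in either direction. Of the 10 tested paralogs 8 had such an interval, as did 85.0% of all tested genes and all 66 tested mitochondrial ribosomal protein genes. The shares were not compared by a test. The SD within groups had a median of 0.182 over main genes and 0.229 over all tested genes.

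**Figure D1:**
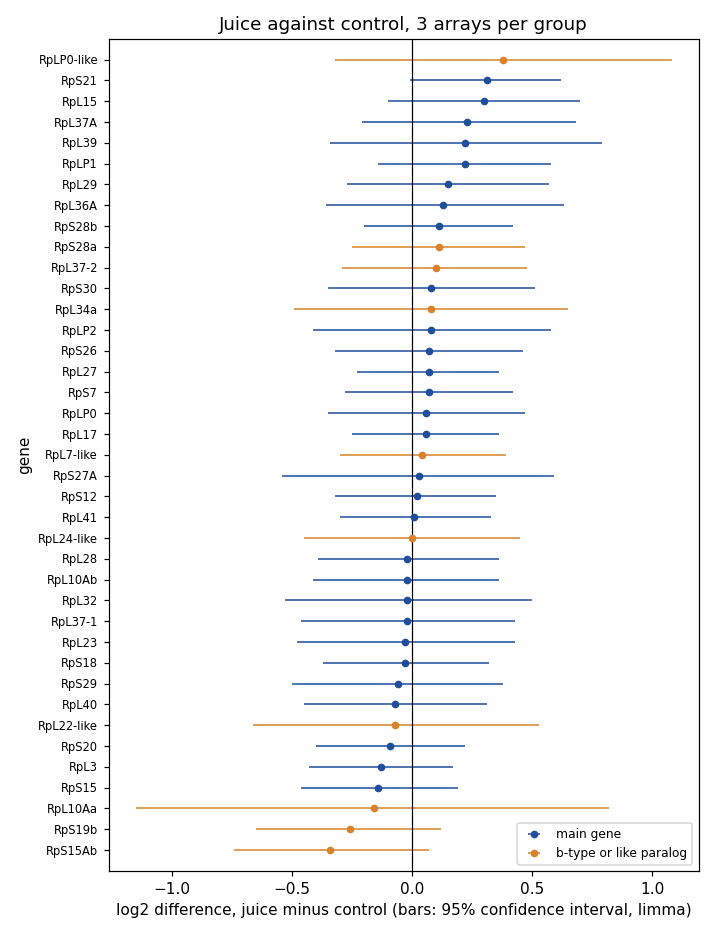
Log2 difference of each of the 39 tested ribosomal protein genes (x axis, juice minus control, 3 arrays per group) with its 95% confidence interval from limma, main genes in blue and b-type or like paralogs in orange. The interval of each gene includes 0, the nearest to leaving it being that of RpS21, from -0.01 to 0.62.

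Among small subunit genes the nearest to a difference was RpS21, in flies also known as a gene whose loss overgrows the blood-forming organs. It measured 5.73, 5.69 and 5.58 in control replicates 1 to 3 and 5.89, 6.09 and 5.94 in juice replicates 1 to 3. All 3 juice arrays lay above all 3 control arrays, the closest pair being juice replicate 1 and control replicate 1. The difference was 0.31 ± 0.13 (SE), a 1.24-fold ratio (limma, unadjusted p = 0.0539, adjusted p = 0.931). With 1 array left out it ran from 0.25 to 0.35, and its unadjusted p fell below 0.05 in the linear model without moderation, without the filter on dim genes, with array weights and under both other scalings of the arrays.

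The remaining main genes of the small subunit lay between -0.14 and 0.11 in their differences. RpS15 and RpS20 had the lowest, at -0.14 ± 0.14 and -0.09 ± 0.13 (SE). RpS15 measured 4.67, 4.64 and 4.87 in control and 4.49, 4.69 and 4.58 in juice, and its groups overlapped. RpS29, one of the 3 brightest members, measured 10.87, 10.97 and 11.31 in control and 10.82, 11.26 and 10.88 in juice. In RpS29 control replicate 3 and juice replicate 2 stood together above the other arrays. RpS28b, also among the brightest, kept within a narrow band of 10.64 to 10.70 in control and 10.70 to 10.90 in juice. RpS12, whose product flies need for the competition between Minute and normal cells, measured 10.09, 10.06 and 10.15 in control and 9.97, 10.30 and 10.08 in juice. RpS27A, which is made as a fusion with ubiquitin, had the widest spread within groups of the main genes (SD 0.34). Its values were 9.41, 9.48 and 9.80 in control and 9.38, 10.09 and 9.30 in juice, so that juice larvae held both its highest and its lowest array. RpS18, RpS26, RpS30 and RpS7 had differences of -0.03, 0.07, 0.08 and 0.07, each smaller than its standard error, and that of RpS18 was 0.02 with equal array medians.

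A further part of the small subunit, the signalling scaffold Rack1, does not carry a ribosomal protein symbol and was not a member. It measured 7.27, 7.46 and 7.57 in control and 7.22, 7.92 and 7.28 in juice (difference 0.04 ± 0.22 SE, limma's adjusted p = 0.992). Its highest array was juice replicate 2, as in 21 of the 29 main genes.

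In the large subunit the 15 main genes had differences of -0.13 to 0.30 with a median of 0.01. RpL15 had the largest, with 8.72, 8.93 and 8.89 in control and 8.86, 9.36 and 9.21 in juice. Juice replicate 1 lay among the control arrays and the other two juice arrays above them. The difference was 0.30 ± 0.17 (SE; limma, unadjusted p = 0.123, adjusted p = 0.931), and leaving out juice replicate 1 gave 0.44, at an unadjusted p under 0.05 (limma's adjusted p = 0.668). RpL37A measured 7.96, 8.10 and 7.98 in control and 7.96, 8.61 and 8.17 in juice. RpL39, a small protein of the exit tunnel for the new chain, measured 6.33, 6.68 and 6.81 in control and 6.80, 7.25 and 6.43 in juice. For both genes the higher juice mean leaned on juice replicate 2, without which the differences were 0.05 and 0.01 in place of 0.23 and 0.22.

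RpL3, which lies near the centre where peptide bonds form, had the lowest difference of the large subunit's main genes. It measured 9.78, 9.79 and 9.72 in control and 9.72, 9.58 and 9.61 in juice (difference -0.13 ± 0.13 SE, limma's adjusted p = 0.931). It was the only main gene whose lowest array was juice replicate 2. RpL27 had the smallest SD within groups of all members, 0.0455. Its control values of 5.44, 5.41 and 5.44 all lay below its juice values of 5.56, 5.45 and 5.47, but by 0.07 ± 0.12 (SE) on average. The absence of overlap in RpL27 thus went with a difference smaller than limma's standard error, which is drawn toward the spread of all tested genes. The difference of 0.07 was larger than the gene's own SD within groups of 0.0455.

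RpL32, long used in fly work as a reference gene for quantitative PCR under the name rp49, measured 6.42, 6.48 and 6.78 in control and 6.42, 6.96 and 6.24 in juice. Its group means were 6.56 ± 0.19 and 6.54 ± 0.38 (SD, n = 3 per group), a difference of -0.02 ± 0.22 (SE). Its juice arrays thus held both its highest and its lowest value, juice replicates 2 and 3. RpL41, the shortest ribosomal protein and the brightest member here, measured 11.24, 11.22 and 11.21 in control and 11.22, 11.37 and 11.11 in juice. RpL40, like RpS27A a fusion with ubiquitin, had a difference of -0.07, and RpL23, RpL10Ab, RpL37-1 and RpL28 had differences of -0.03, -0.02, -0.02 and -0.02. With equal array medians RpL32 and these last 4 genes had a higher mean in juice, by 0.02 to 0.03. RpL17, RpL36A and RpL29 lay higher in juice, by 0.06, 0.13 and 0.15, each less than its standard error of 0.13, 0.21 and 0.18.

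All 3 stalk genes had a higher mean in juice. RpLP1 measured 8.57, 8.62 and 8.68 in control and 8.74, 9.08 and 8.70 in juice, without overlap. The gap between control replicate 3 and juice replicate 3 was narrow, and the difference of 0.22 ± 0.15 (SE) did not pass (limma, unadjusted p = 0.195, adjusted p = 0.931). RpLP2 measured 9.50, 9.68 and 9.76 in control and 9.45, 10.16 and 9.60 in juice. RpLP0, the protein that anchors the stalk, measured 9.54, 9.37 and 9.65 in control and 9.46, 9.87 and 9.40 in juice. In RpLP2 and RpLP0 the groups overlapped, and without juice replicate 2 both juice means lay below the control means, by -0.13 and -0.09.

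**Figure D2:**
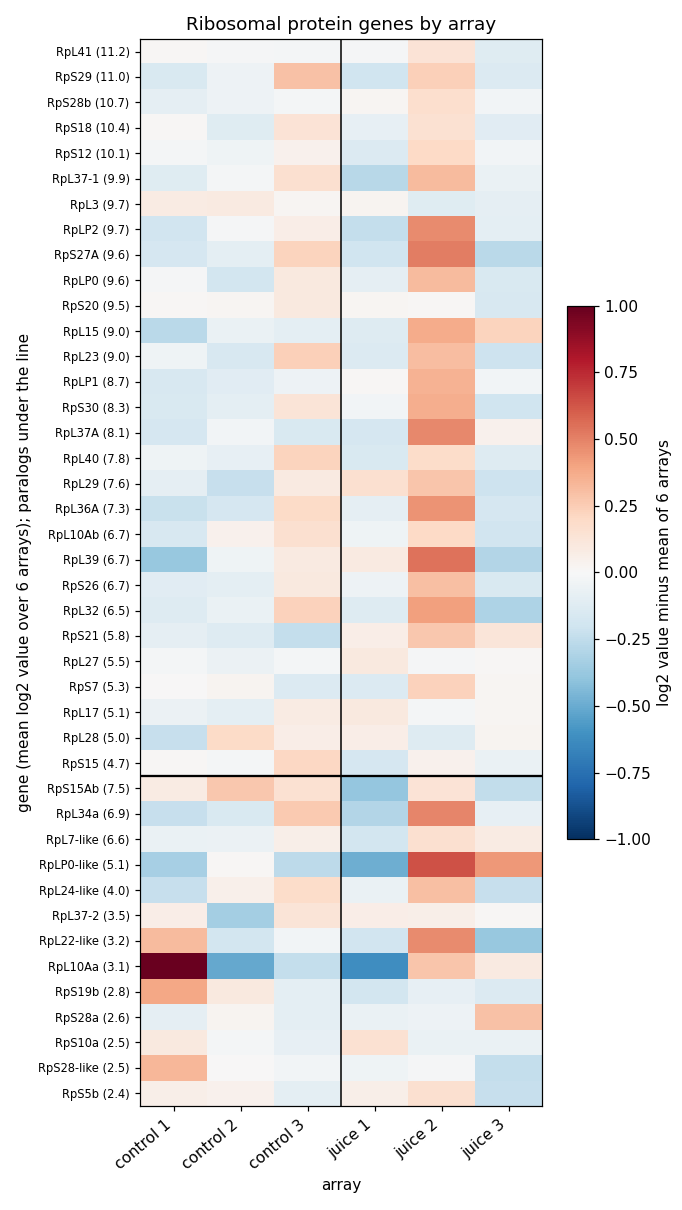
Deviation of each of the 42 ribosomal protein genes (rows) on each of the 6 arrays (columns) from its own mean, on the log2 scale, with main genes above the line in order of brightness and paralogs under it. The column of juice replicate 2 is red in most rows, and RpL10Aa in control replicate 1 is the darkest cell.

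Over the single arrays, most main genes were highest on juice replicate 2. The median main gene lay at 0.27 above its own mean on juice replicate 2 and at 0.09 above it on control replicate 3. On control replicates 1 and 2 and juice replicates 1 and 3 it lay at -0.09, -0.06, -0.08 and -0.11. In the deposited values juice replicates 1 and 3 thus lay near control replicates 1 and 2, and the higher juice mean of many genes came from juice replicate 2. The median of all tested genes on juice replicate 1 was -0.08 as well. With equal array medians the main genes spread over these arrays, from -0.21 on control replicate 1 to 0.01 on juice replicate 1. Juice replicate 2 was the highest of the 6 arrays in 21 of 29 main genes (72.4%), against 27.0% of all tested genes. The median of all tested genes on juice replicate 2 was 0.04. All 11 small subunit genes and all 3 stalk genes lay above their own mean on it, as did 11 of 15 large subunit genes. The high position of juice replicate 2 held under the other scalings. That array was highest in 22 main genes (75.9%) after quantile normalization, with a median of 0.27, against 25.5% of all tested genes. With equal array medians it was highest in 20 (69.0%), with a median of 0.25, against 23.7% of all tested genes. Juice replicate 2 is a single pool, so there is no replicate against which its position could be tested.

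This shared position was clearer in the brighter main genes. In a split chosen after the values were seen, juice replicate 2 was highest in 19 of the 23 main genes with a mean of 6 or more (82.6%) and in 2 of the 6 below it. The same shares over all tested genes were 30.7% and 25.8%. The 6 dimmer main genes were RpS21, RpL27, RpS7, RpL17, RpL28 and RpS15. RpL3 and RpS20, at means of 9.70 and 9.47, did not follow the pattern either: RpS20 measured 9.48 on juice replicate 2 and 9.48, 9.49 and 9.57 in control.

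Because juice replicate 2 weighed on the juice mean, the direction of the median rested on it. Without it the median difference over 39 members was -0.079, with 13 higher and 26 lower, against -0.041 over all tested genes. Without control replicate 1 as well, it was -0.097, with 12 higher and 27 lower, against -0.02 over all tested genes. With any other single array left out the median ran from 0.021 to 0.103. Groups without overlap were found in 9 of 39 members without juice replicate 2, where 19.9% of all tested genes had none, and in 4 of 39 without control replicate 2, where 21.8% had none. Without any other single array the count was 5 to 8, against 15.5% to 25.7% of all tested genes, with 38 members tested when juice replicate 3 was left out. Leaving out single arrays changed no call at adjusted p under 0.05 among the members, which stayed at 0.

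**Figure D3:**
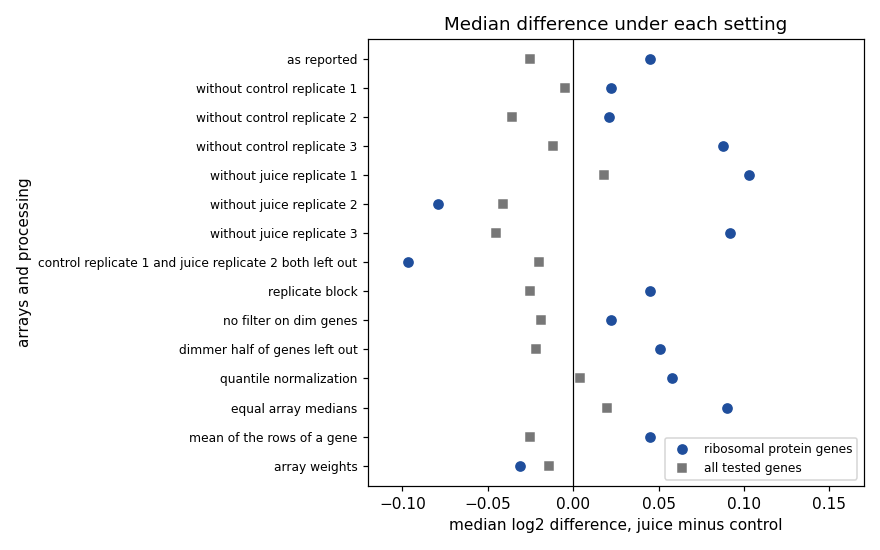
Median log2 difference (x axis, juice minus control) over the tested ribosomal protein genes (circles) and over all tested genes (squares) for each choice of arrays and processing (rows). The circles lie right of 0 as reported (0.045) and left of it without juice replicate 2 (-0.079), without control replicate 1 and juice replicate 2 (-0.097) and with array weights (-0.031).

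The paralogs formed a more mixed set. Of the 13, RpS28-like, RpS10a and RpS5b fell below the filter on dim genes, which kept genes with a mean of 2.63 or more. RpS28a, at 2.65, lay just inside the filter and RpS10a, at 2.50, just outside it. The 10 that were tested had a median difference of 0.02, with 5 higher and 5 lower. None had an unadjusted p under 0.05 in limma, against 4.68% of all tested genes. The widest intervals were those of RpL10Aa, from -1.15 to 0.82, and RpLP0-like, from -0.32 to 1.08, and the median standard error was 0.182, against 0.164 over the main genes. Different rows of the array have different probes, so the level of a paralog was not set against the level of its main gene, and only changes between arrays were compared.

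RpS15Ab, a duplicate of the small subunit gene RpS15Aa, had the lowest difference of all members. It measured 7.59, 7.78 and 7.66 in control and 7.12, 7.65 and 7.25 in juice. Juice replicates 1 and 3 lay below every control array and juice replicate 2 among them. The difference was -0.34 ± 0.17 (SE), a ratio of 0.792 (limma, unadjusted p = 0.0922, adjusted p = 0.931). Leaving out juice replicate 2 gave -0.49, at an unadjusted p under 0.05 (limma's adjusted p = 0.924). The main copy RpS15Aa was not analysed here, and signal from near-identical copies cannot be told apart where a probe matches both.

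RpL34a, a large subunit paralog, followed the pattern of the main genes. It measured 6.66, 6.74 and 7.15 in control and 6.59, 7.38 and 6.81 in juice, with control replicate 3 and juice replicate 2 highest. RpL7-like and RpL24-like, whose yeast counterparts serve in assembling the large subunit rather than in the finished ribosome, had differences of 0.04 ± 0.15 and 0.00 ± 0.19 (SE). RpL22-like, used mainly in the fly testis, measured 3.54, 3.04 and 3.19 in control and 3.03, 3.69 and 2.84 in juice. RpS28a measured 2.56, 2.68 and 2.55 in control and 2.58, 2.60 and 2.94 in juice, close to the dim end of the scale. These paralogs overlapped between the groups.

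Both genes of a pair were measured in 5 of 14 listed pairs. In the pair of RpLP0 with RpLP0-like, whose yeast counterpart acts in ribosome assembly, the paralog varied more. RpLP0-like measured 4.80, 5.14 and 4.87 in control and 4.63, 5.77 and 5.55 in juice, a span of 1.13 over the arrays against 0.50 for RpLP0. Juice replicates 2 and 3 lay above every control array and juice replicate 1 below them. Its difference of 0.38 ± 0.30 (SE) was the largest of all members and did not pass (limma, unadjusted p = 0.238, adjusted p = 0.931). Leaving out juice replicate 1 gave 0.72, at an unadjusted p under 0.05 (limma's adjusted p = 0.668), and leaving out juice replicate 2 gave 0.16.

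In the pair of RpL10Ab with RpL10Aa, a copy of the germ line, the arrays that stood out differed between the genes. RpL10Ab measured 6.57, 6.77 and 6.90 in control and 6.69, 6.94 and 6.54 in juice, a span of 0.40. RpL10Aa measured 4.11, 2.61 and 2.89 in control and 2.51, 3.41 and 3.21 in juice, a span of 1.61 that was the widest of all members. On control replicate 2 and juice replicate 1 it lay below 2.63, the bound of the dim filter for gene means. Relative to RpL10Ab, RpL10Aa was 1.15 higher on control replicate 1 than on the average array. Its difference was -0.16 ± 0.42 (SE), and without control replicate 1 it was 0.29.

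RpL37-1 and RpL37-2 had differences of -0.02 ± 0.19 and 0.10 ± 0.16 (SE). RpL37-1 measured 9.75, 9.85 and 10.03 in control and 9.59, 10.19 and 9.79 in juice, and RpL37-2, used mainly in the testis, 3.58, 3.17 and 3.64 and then 3.59, 3.57 and 3.53. RpL37-2 thus did not share the high value of RpL37-1 on juice replicate 2, and its 3 juice values were nearly equal. RpS28b and RpS28a had the same difference, 0.11, with RpS28b highest on juice replicate 2 and RpS28a on juice replicate 3. RpS28-like, which was not tested, measured 2.77, 2.45 and 2.42 in control and 2.41, 2.44 and 2.21 in juice, with its highest value on control replicate 1.

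**Figure D4:**
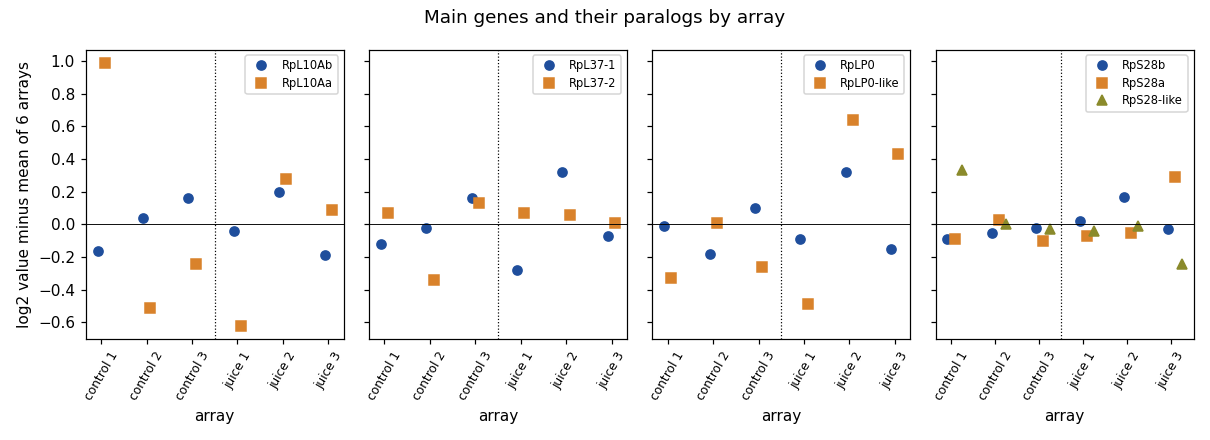
Deviation of each gene from its own mean over the 6 arrays (y axis, log2 scale) for main genes (circles) and their measured paralogs (squares and triangles) in 4 families, by array (x axis). RpL10Aa stands highest on control replicate 1, where RpL10Ab lies under its own mean, and RpLP0-like is high on juice replicates 2 and 3 and RpLP0 on juice replicate 2.

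Copies known from the germ line or testis had their highest values on different arrays. RpS19b, a germ line copy of RpS19a, measured 3.21, 2.92 and 2.72 in control and 2.63, 2.74 and 2.68 in juice. Its mean of 2.81 lay near the dim filter's bound of 2.63. Its difference was -0.26 ± 0.16 (SE; limma, unadjusted p = 0.146, adjusted p = 0.931), and without control replicate 1 it was -0.13. RpS19b, RpL10Aa and RpS28-like were the 3 of 13 paralogs whose highest array was control replicate 1, a share near the 20.1% of all tested genes, and RpS28-like was among the 3 that were not tested. RpL22-like and RpS5b were highest on juice replicate 2, RpL37-2 on control replicate 3 and RpS10a on juice replicate 1. Of the 23 tested genes of a list of testis and spermatocyte markers, 20 had their highest value on control replicate 1, where the median marker lay at 0.89 above its own mean. The summed level of all 30 measured markers was 11.21 (log2) on control replicate 1, 9.23 and 9.83 on the other two control arrays, and 9.31 to 10.32 on the juice arrays. Of these 30 markers 7 were below the filter on dim genes. The labels give no sex for the pooled larvae, and the part of testis tissue in the values of these paralogs was not tested. RpS5b and RpS10a, copies of the germ line and the testis, stayed at the dim end, from 2.15 to 2.54 and from 2.42 to 2.65.

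Other genes of ribosome production did not differ detectably either. Of 32 tested genes for ribosome assembly and the nucleolus, 14 were higher and 18 lower, with a median difference of -0.01. In limma 0 of them passed at adjusted p under 0.05 and 1 had an unadjusted p under 0.05, against 4.68% of all tested genes. That gene was Rrp6, a nuclear exosome subunit that trims ribosomal RNA, at 6.05, 5.16 and 5.20 in control and 4.93, 3.90 and 4.93 in juice (limma, difference -0.88 ± 0.36 SE, unadjusted p = 0.0407, adjusted p = 0.931). Its highest array was control replicate 1 and its lowest juice replicate 2, the pair of arrays that stood apart, and without both the difference was -0.25. The WD-repeat nucleolar gene wcd had a difference of -0.28 ± 0.13 (SE). On juice replicate 2 the median assembly gene lay at 0.13 above its own mean, less than the 0.27 of the main ribosomal protein genes.

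RNA polymerase I, which makes the large ribosomal RNA precursor, had 8 tested genes, 5 higher and 3 lower. In limma 0 of these had an unadjusted p under 0.05, against 4.68% of all tested genes. The initiation factor gene Tif-IA measured 8.03, 7.72 and 7.67 in control and 7.58, 7.89 and 8.29 in juice, and its groups overlapped. Its partners in the promoter complex differed in direction, with udd at 0.26 ± 0.17 and TAF1B at -0.37 ± 0.18 (SE). Of 4 tested elongation factor genes 2 were higher and 2 lower. Among them, eEF1gamma had a difference of -0.29 ± 0.13 (SE; limma, unadjusted p = 0.0618, adjusted p = 0.931) and eEF5 one of 0.16 ± 0.16, with its highest value, 10.17, on juice replicate 2.

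Among 20 tested genes of growth control and of the response to ribosome stress, 10 were higher and 10 lower. The groups did not overlap in 2 of the 20, where 10.0% of all tested genes had no overlap. In limma 1 had an unadjusted p under 0.05, against 4.68% of all tested genes. It was Sesn, which encodes sestrin, a brake on the TOR kinase, at 7.83, 7.67 and 8.15 in control and 7.45, 7.30 and 7.26 in juice. All 3 juice arrays lay below the control arrays, by -0.55 ± 0.17 (SE; limma, unadjusted p = 0.013, adjusted p = 0.931). S6k, the kinase that phosphorylates a small subunit protein under TOR, measured 7.54 ± 0.10 in control and 7.62 ± 0.14 in juice (SD, n = 3 per group). Myc, Thor and Xrp1 were not analysed here.

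Mitochondrial ribosomal proteins, a separate family encoded in the nucleus, gave a like count, with 40 of 66 tested genes higher and a median difference of 0.01. At an unadjusted p under 0.05 in limma there were 0 of them, against 4.68% of all tested genes. The member nearest to a difference was mRpL1, at 0.35 ± 0.17 (SE; limma's adjusted p = 0.931). Juice replicate 2 was highest in 43.9% of them, and the median gene lay at 0.15 above its own mean there. Neither this share nor the 72.4% of the cytosolic main genes was compared by a test, since both describe 1 array.

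Markers of other tissues moved between the arrays as well. Of 8 tested muscle genes 5 were higher in juice and 3 lower, with a median difference of 0.38. The lower ones were sls, bt and Act87E, at -0.22, -0.14 and -0.09. In limma 4 had an unadjusted p under 0.05, all higher in juice, against 4.68% of all tested genes, and 0 had an adjusted p under 0.05. The summed level of the muscle genes, to which the brightest add most, was 12.76 to 13.04 (log2) in control and 13.07 to 13.47 in juice. This sum was highest on juice replicate 1, where the main ribosomal protein genes and all tested genes both had a median deviation of -0.08. The larval fat body genes had a median difference of -0.21 over 3 genes, and the 10 tested germ line genes one of 0.00. The part of muscle and fat body in the ribosomal protein values was not tested. Dividing tissue, by its 9 tested markers of replication and division, lay at a median of 0.12 on juice replicate 2, 0.15 on juice replicate 3 and -0.25 on juice replicate 1, and its part in the ribosomal protein values was not tested.

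**Figure D5:**
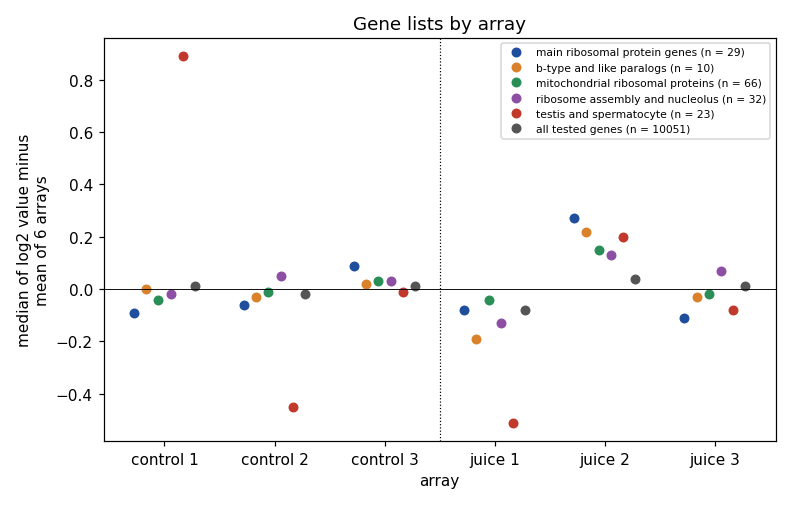
Median deviation from the mean over the 6 arrays (y axis, log2 scale) of the tested genes of 5 lists and of all tested genes on each array (x axis). Main ribosomal protein genes (blue) are highest on juice replicate 2, at 0.27, and testis genes (red) on control replicate 1, at 0.89.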

How the data were processed

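The table the authors deposited holds log2 expression for each row of Affymetrix arrays of 6 RNA pools. The authors used RMA and Affymetrix Expression Console 1.4.0.38, per the submitters' processing notes. RMA as generally defined makes the distributions of the arrays alike, so a shift of most transcripts would be removed. Over the genes with a row of their own the array medians still ran from 3.51 on juice replicate 1 to 3.72 on control replicate 1. The array's own annotation named the rows. Of 16322 rows 13440 had 1 gene, 555 several and 2327 none, and 11 rows that paired a ribosomal protein gene with another gene were left out. The brightest row of each gene was kept, the dimmest 25% of genes (means below 2.63) were left out, and 10051 were tested with limma 3.58.1 in R 4.3.3, without covariates, with Benjamini-Hochberg adjustment over all of them. The number of arrays limits the precision (median standard error 0.184), and p-values measure only the spread between pools, which may be technical. Intervals are 95%. They and the standard errors of differences are from limma, which draws the spread of each gene toward that of all tested genes (moderation). The procedure was tested on simulated data with changes of 2-fold or more and independent noise in each gene. That run does not bear on smaller changes or on shifts shared by the genes of an array. Same-numbered arrays did not deviate together (correlations of -0.108, -0.074 and -0.082). With so few arrays per group this cannot exclude a shared batch, and the labels name none.

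The members, lists and tests were chosen with earlier results of these data known. The members are described in full. From other lists the text names up to 4 genes with the smallest unadjusted p, plus Tif-IA and Rack1. The exceptions are S6k and the fat body genes, chosen after their values were seen, and the muscle genes, named for their lower mean in juice. Alternatives were each array left out, both arrays that stood apart left out, the replicate block, other dim filters, scalings, row averages, variance models and array weights. Repeating them for genes of other lists was added after seeing the data. Gene names come from the fly assembly Release 6 plus ISO1 MT. Sequences were not used here.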

Additional observations from a re-analysis of the deposited data

How the results depend on the processing

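The number of arrays limits these results: 3 pools per group, with a median standard error of 0.184. No member had an adjusted p under 0.05 under any alternative run. Over all tested genes the limma count at adjusted p under 0.05 was 0 to 4 with 1 array left out, the 4 without juice replicate 3. Members at an unadjusted p under 0.05 numbered 0 to 2 with 1 array left out (1.79% to 7.44% of all tested genes), 1 each with control replicate 1 and juice replicate 2 both left out, without the dim filter, with quantile normalization, with equal medians and without moderation (3.97% to 4.80%), and 2 with array weights (5.68%). Members without overlap numbered 4 to 9 with 1 array left out (15.5% to 25.7% of all tested genes) and 16 with both left out (34.1%). The paralogs' median ran from -0.147 to 0.104 with 1 array left out. With the replicate number as a block the members' median stayed at 0.045, with 0 called. The smallest adjusted p in limma was then 0.98 over the members and 0.504 over all tested genes. By the labels, same-numbered arrays share only a number. Of 428 values of members, 70 turned direction, in 24 of 39 members. With 1 array left out these differences turned, within ranges of -0.18 to 0.16 (Rack1), -0.46 to 0.29 (RpL10Aa), -0.13 to 0.07 (RpL10Ab), -0.32 to 0.10 (RpL22-like), -0.19 to 0.09 (RpL23), -0.15 to 0.11 (RpL24-like), -0.14 to 0.07 (RpL28), -0.23 to 0.14 (RpL32), -0.14 to 0.25 (RpL34a), -0.06 to 0.26 (RpL36A), -0.19 to 0.12 (RpL37-1), -0.05 to 0.19 (RpL37-2), -0.17 to 0.03 (RpL40), -0.06 to 0.07 (RpL41), -0.03 to 0.14 (RpL7-like), -0.09 to 0.15 (RpLP0), -0.13 to 0.23 (RpLP2), -0.08 to 0.09 (RpS12), -0.11 to 0.04 (RpS18), -0.06 to 0.16 (RpS26), -0.22 to 0.17 (RpS27A), -0.20 to 0.07 (RpS29), -0.08 to 0.20 (RpS30), -0.02 to 0.16 (RpS7) and -0.07 to 0.28 (Tif-IA). With both arrays left out the turned values were -0.27 (Rack1), 0.11 (RpL10Aa), -0.24 (RpL34a), -0.13 (RpL36A), -0.13 (RpL39), -0.05 (RpL41), -0.05 (RpL7-like), -0.08 (RpLP0), -0.20 (RpLP2), -0.08 (RpS12), -0.10 (RpS26), -0.30 (RpS27A), -0.13 (RpS30) and -0.01 (RpS7). Quantile normalization turned RpL24-like to 0.05, RpL28 to 0.02, RpL32 to 0.01 and RpL37-1 to 0.01. Equal array medians turned RpL10Ab to 0.02, RpL23 to 0.02, RpL24-like to 0.04, RpL28 to 0.03, RpL32 to 0.03, RpL37-1 to 0.03 and RpS18 to 0.02. The cause of these turns was not tested.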
